A study of Mus musculus with 7 samples.

Results

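The genes described here are 8 enzymes of glycolysis (Hk2, Pfkl, Pfkp, Aldoa, Tpi1, Pgam1, Pkm and Ldha), the glucose transporter Slc2a1 and the transcription factor Hif1a, 10 of the 12393 mouse genes that the arrays measured with a probe set assigned to 1 gene symbol. All probe sets carrying one of these symbols were taken, 22 of 22626, and all 22 passed the filter on low signal, 1 of them (Hif1a 1431981_at) through the allogeneic groups alone. The samples were spleen cells of female C57BL/6 (B6) recipients aged 9 to 12 weeks that had been irradiated with 10.0 Gy and given donor splenocytes 4 to 6 h later, and RNA was prepared on day 4. The syngeneic group (1 array) received B6 cells and no antibody is named for it. The other 3 groups (2 arrays each) received allogeneic cells from C3H/HeN donors, which differ from the recipient in their MHC. They were treated with control rat IgG (isotype), with a monoclonal antibody against ICOSL from day 0, or with that antibody from day 3. Antibody was given as 500 µg at first and 200 µg every other day after that, and a start day for the isotype antibody is not given in the sources used here. By this schedule, the day 3 group had only the first dose before RNA was prepared on day 4. The 2 anti-ICOSL schedules therefore differ in doses and length of exposure as well as in start day. Groups held 4 mice per experiment, and the arrays of an allogeneic group were hybridised with RNA pooled from its mice, so p-values measure only the spread between arrays, which may be technical. Donor strain, allogeneic response and antibody injection cannot be told apart in any comparison with the syngeneic array. The spread of the syngeneic group, which has 1 array, was taken from the other groups.

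Glycolysis turns glucose into pyruvate in the cytosol. Glucose enters through carriers such as Slc2a1 (GLUT1), is trapped by hexokinase and committed by phosphofructokinase. The sugar is then split by aldolase, and phosphoglycerate mutase and pyruvate kinase act near the end. Lactate dehydrogenase turns pyruvate into lactate and regenerates the NAD+ that glycolysis needs. Resting T cells rely largely on mitochondrial respiration, and activated effector T cells raise glucose uptake and glycolysis. Hif1a encodes the regulated subunit of HIF-1, which binds the core sequence ACGTG in many promoters of glycolytic genes, and whose protein level is set largely by its breakdown when oxygen is present.

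The promoters of 5 members are shown because they run from glucose entry to Hif1a itself and each window holds the HIF-1 core ACGTG. Each line gives the 150 bases before the annotated start in RefSeq (build GRCm38.p6), 5′ to 3′ on the strand of the gene, with ACGTG or its reverse complement CACGT in capitals. The windows are chr4:119108595-119108744 (plus strand) for Slc2a1, chr6:82774455-82774604 (minus strand) for Hk2, chr19:41911721-41911870 (plus strand) for Pgam1, chr7:46845654-46845803 (plus strand) for Ldha and chr12:73907717-73907866 (plus strand) for Hif1a.
Slc2a1: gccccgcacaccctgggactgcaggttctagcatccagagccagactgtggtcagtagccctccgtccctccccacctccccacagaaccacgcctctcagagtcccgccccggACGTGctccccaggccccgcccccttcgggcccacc
Hk2: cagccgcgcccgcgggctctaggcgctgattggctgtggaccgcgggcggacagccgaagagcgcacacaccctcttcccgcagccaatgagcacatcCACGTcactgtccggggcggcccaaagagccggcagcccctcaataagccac
Pgam1: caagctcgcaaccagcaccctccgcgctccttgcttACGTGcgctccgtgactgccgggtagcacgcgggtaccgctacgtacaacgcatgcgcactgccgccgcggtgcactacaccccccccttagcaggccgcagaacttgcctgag
Ldha: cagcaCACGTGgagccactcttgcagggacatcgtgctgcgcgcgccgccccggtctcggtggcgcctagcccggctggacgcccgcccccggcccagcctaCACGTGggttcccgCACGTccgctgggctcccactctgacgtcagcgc
Hif1a: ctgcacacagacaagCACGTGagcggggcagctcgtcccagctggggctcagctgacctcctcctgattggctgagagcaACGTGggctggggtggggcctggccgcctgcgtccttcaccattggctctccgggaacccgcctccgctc
The Ldha window holds the palindrome CACGTG, which contains ACGTG on both strands, at 2 places, with matches starting at -145, -144, -48 and -47 from the start, and a further CACGT at -34. Hif1a's own window holds CACGTG at -135 with ACGTG at -134 within it, and ACGTG at -70. Slc2a1 has its match at -36, Hk2 at -52, and Pgam1 at -114. Over the 250 bases before the start, searched on both strands, 7 of the 10 members held ACGTG in at least 1 of their annotated promoters (8 of 14 promoters). The shares were 18.5% of 27025 genes in the RefSeq table, 16.6% of its 32851 promoters, and 25.0% of the 7289 tested genes that this table holds. The related form GCGTG was found in 5 of the 10 members, against 49.3% of those 7289 genes. These matches describe letters and not bound sites.

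Signals are MAS5 intensities on a linear scale, and each array had been scaled so that its 2% trimmed mean lay between 500.181 and 500.193, with medians of 145.3 to 174.3. Differences were fitted as log2(signal + 50) with limma over all 7 arrays, and adjusted p-values follow Benjamini and Hochberg across all 15372 probe sets that were tested, comparison by comparison, and pass under 0.05. The added 50 understates changes of dim probe sets. The marker lists of T cells, B cells, macrophages and erythroid cells, all cell types of the spleen, each gave a summed signal of at least 5613 on every array. Levels are compared within a probe set, never between probe sets.

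How transcripts of the spleen differ after an allogeneic and after a syngeneic transplant was read from isotype against syngeneic arrays. Every member had a higher group mean in the allogeneic spleen. On the log2(signal + 50) scale, the brightest probe set of each enzyme was higher by 1.76-fold (Aldoa) to 2.58-fold (Pfkp). That of Slc2a1 was higher by 1.30-fold and that of Hif1a by 3.25-fold. Over all member probe sets the changes ran from 1.13-fold (Slc2a1 1426599_a_at) to 6.79-fold (Hif1a 1448183_a_at). Of the 21 member probe sets with a syngeneic signal at or above the filter's 99.7, 11 rose and 0 fell, and they belong to 8 genes: Hk2, Pfkl, Pfkp, Tpi1, Pgam1, Pkm, Ldha and Hif1a. Among the 13297 probe sets with such a syngeneic signal 2.0% rose. With the remaining Hif1a probe set, whose syngeneic signal was under the filter, 12 of 22 were called higher, against 2.49% of all tested probe sets. The median log2 change was 0.916 for the 21 and -0.062 for the 13297. Since the members were chosen with earlier results of these data known, these contrasts describe them and are not a test. In 21 of the 22, covering all 10 genes, both isotype arrays lay above the syngeneic array, which held for 38% of all tested probe sets. In these bulk samples fewer cells of a type and less RNA per cell cannot be told apart. Only 3 member probe sets passed without isotype array 1 and 3 without isotype array 2, and 7 passed without day 0 array 1, without day 0 array 2 or without day 3 array 1. A fit to the syngeneic and isotype arrays by themselves left 1. Calls over all tested probe sets fell under these settings too, as given below.

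At the entry step, Slc2a1 carries glucose across the plasma membrane. Its brightest probe set, 1426600_at, read 384 on the syngeneic array, 547 and 482 with isotype, 628 and 581 with anti-ICOSL from day 0, and 482 and 525 with anti-ICOSL from day 3. Probe set 1434773_a_at read 249 on the syngeneic array, 304 and 393 with isotype, 587 and 502 from day 0, and 332 and 427 from day 3. For 1426599_a_at the signals were 203, then 327 and 168 with isotype, 335 and 297 from day 0, and 234 and 222 from day 3. The day 0 arrays were the brightest allogeneic arrays for the first 2 probe sets, and isotype array 2 fell below the syngeneic array for the last. None of the 3 passed against the syngeneic array in isotype (log2 changes of 0.18 to 0.40), where limma's smallest adjusted p was 0.327. Hk2, the inducible hexokinase that phosphorylates glucose, read 361 on the syngeneic array, 901 and 884 with isotype, 849 and 1025 from day 0, and 741 and 618 from day 3. All 6 allogeneic arrays lay above the syngeneic one, with the day 3 arrays lowest among them. Hk2 rose in isotype by 1.20 ± 0.22 on the log2 scale (SE, adjusted p = 0.0303).

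Phosphofructokinase makes the committed step, with Pfkl as its liver-type and Pfkp as its platelet-type subunit, and both are also made in leukocytes. Pfkl probe set 1439148_a_at read 996 on the syngeneic array, 1981 and 2078 with isotype, 1860 and 1629 from day 0, and 1592 and 1811 from day 3. Its second probe set, 1450269_a_at, read 891, then 1271 and 1188 with isotype, 1373 and 1079 from day 0, and 976 and 1143 from day 3. The first rose in isotype (log2 change 0.99 ± 0.21, adjusted p = 0.0429) and the second did not pass (0.44 ± 0.23, adjusted p = 0.321), so the probe sets of Pfkl disagree on the call and not on the direction. Pfkp probe set 1416069_at read 1276 on the syngeneic array, 3456 and 3278 with isotype, 3348 and 3351 from day 0, and 3006 and 2642 from day 3. Probe set 1430634_a_at read 349, then 1109 and 1410 with isotype, 1275 and 1479 from day 0, and 1523 and 1411 from day 3. Both probe sets of Pfkp rose in isotype, by 1.36 ± 0.20 (adjusted p = 0.014) and 1.70 ± 0.23 (adjusted p = 0.0123), and no allogeneic array came near the syngeneic value in either.

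Aldoa, the aldolase that splits the 6-carbon sugar, was higher in isotype without passing in any of its 4 probe sets. The brightest, 1416921_x_at, read 5236 on the syngeneic array, 9049 and 9454 with isotype, 9157 and 8161 from day 0, and 7785 and 8116 from day 3. Its log2 change in isotype was 0.82 ± 0.20 (adjusted p = 0.0643). The other Aldoa probe sets were 1434799_x_at (2790 on the syngeneic array and 3660 to 4541 on the allogeneic arrays), 1433604_x_at (2203 and 2921 to 3957) and 1439375_x_at (1843 and 2849 to 3387). Their log2 changes in isotype were 0.44, 0.67 and 0.66, so all 4 probe sets pointed one way on every allogeneic array. Each Aldoa probe set has the suffix that marks possible cross-hybridisation with other sequences, so signal from near-identical copies is uncertain here.

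Tpi1 interconverts the triose phosphates made by aldolase. Probe set 1452927_x_at read 2278 on the syngeneic array, 4106 and 4388 with isotype, 3617 and 3821 from day 0, and 3902 and 3757 from day 3. For 1415918_a_at the values were 2166, then 4955 and 3443 with isotype, 4032 and 3793 from day 0, and 3151 and 3399 from day 3. The 1435659_a_at probe set read 534, then 1013 and 991 with isotype, 1198 and 1140 from day 0, and 1002 and 1129 from day 3. All 3 were higher on every allogeneic array, and 1452927_x_at, which may also cross-hybridise, was the one that rose in isotype (log2 change 0.88 ± 0.19, adjusted p = 0.0472). The other Tpi1 changes in isotype were 0.92 and 0.85, with adjusted p-values of 0.0996 and 0.0574. Its neighbour in the pathway, Gapdh, was covered by the manufacturer's control probe sets, which were left out of the tests. The 5′ control for Gapdh read 11894 on the syngeneic array and 21219 to 25084 on the allogeneic arrays, and the 3′ control read 11384 and 17841 to 19245.

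In the last steps, Pgam1 moves the phosphate of phosphoglycerate, Pkm makes pyruvate and Ldha reduces it to lactate. Pgam1 read 1060 on the syngeneic array, 2115 and 2239 with isotype, 2149 and 1904 from day 0, and 1736 and 1722 from day 3. Pkm read 3333 on the syngeneic array, 8238 and 7463 with isotype, 7582 and 7579 from day 0, and 7262 and 7521 from day 3. Ldha read 5472 on the syngeneic array, 12829 and 12273 with isotype, 11667 and 12852 from day 0, and 12623 and 12886 from day 3. The 6 allogeneic arrays lay close together for Pkm and Ldha and far above the syngeneic array, while for Pgam1 the day 3 arrays were the lowest of them. Each gene has 1 probe set and rose in isotype: Pgam1 by 1.00 ± 0.20 (adjusted p = 0.0354), Pkm by 1.22 ± 0.19 (adjusted p = 0.019) and Ldha by 1.19 ± 0.19 (adjusted p = 0.0203). The Ldha promoter printed above carries the most ACGTG matches of the 5 shown, with each CACGTG counted on both strands. A second annotated Ldha promoter holds 0 matches over its 250 bases. Whether matches go with changes was not tested.

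Hif1a had the largest change among the member probe sets measured above the filter on every array, that of 1448183_a_at. Its brightest probe set, 1427418_a_at, read 1753 on the syngeneic array, 5860 and 5767 with isotype, 4949 and 5591 from day 0, and 4489 and 4615 from day 3. Probe set 1448183_a_at read 234, then 2046 and 1731 with isotype, 2028 and 2144 from day 0, and 1781 and 1648 from day 3. For 1416035_at the signals were 275, then 751 and 743 with isotype, 908 and 769 from day 0, and 700 and 661 from day 3. No allogeneic array overlapped the syngeneic value in any of these 3. The dimmest probe set, 1431981_at, read 12.4 on the syngeneic array, under the filter, and 157 and 264 with isotype, 296 and 219 from day 0, and 154 and 271 from day 3. It entered the test only through the groups where it is high, so it is described by its signals and given no fold.

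The 3 brighter probe sets of Hif1a rose in isotype, by 1.70 ± 0.19 (adjusted p = 0.00722), 2.76 ± 0.21 (adjusted p = 0.00242) and 1.30 ± 0.20 (adjusted p = 0.0185) in the order given. The sizes differ between probe sets of this 1 gene by more than their errors, and a mean over them was not taken. The change of 1448183_a_at passed under all 15 alternative settings in isotype, where its highest adjusted p was 0.028. It was the single member probe set to do so, since the calls of the other 11 each ended under at least 1 setting. That of 1427418_a_at ended with only the 3 compared arrays in the fit (adjusted p = 0.0518), and that of 1416035_at also without isotype array 1 or 2.

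**Figure D1:**
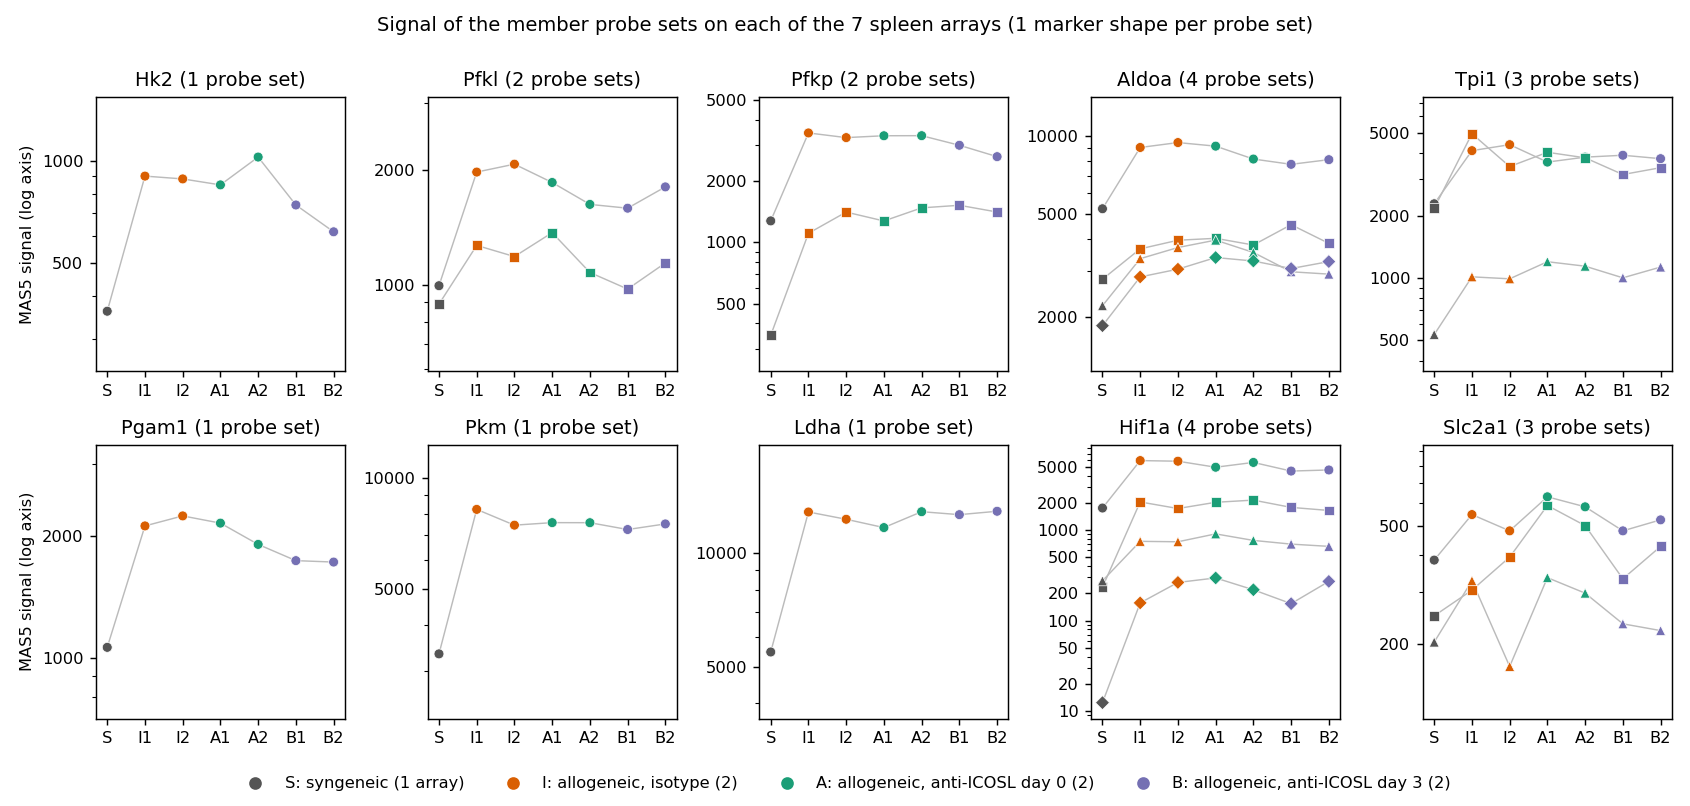
MAS5 signal (log axis) of every member probe set on each of the 7 arrays, 1 panel per gene and 1 marker shape per probe set, with lines that only join the points of a probe set. The syngeneic array lies below the allogeneic arrays in 21 of 22 probe sets, the exception being a Slc2a1 probe set that read 203 on the syngeneic array and 168 on isotype array 2.

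Both anti-ICOSL groups were also compared with the syngeneic array, which all 3 such comparisons share, so their results are not independent of each other. With anti-ICOSL from day 0, 11 member probe sets of 7 genes were called higher (Hk2, Pfkp, Tpi1, Pgam1, Pkm, Ldha and Hif1a), against 2.8% of all tested probe sets. With anti-ICOSL from day 3, 9 of 5 genes did (Pfkp, Tpi1, Pkm, Ldha and Hif1a), against 2.89%. Without Hif1a 1431981_at the counts were 10 and 8 of 21, against 2.29% and 2.04% of the probe sets measured above the filter on the syngeneic array. In both comparisons 0 members fell, and all 22 probe sets were higher without overlap, against 40.5% and 43.9% of all tested probe sets. The median log2 change of the 21 was 0.901 from day 0 and 0.741 from day 3, where the medians of all probe sets so measured were -0.052 and -0.042. Ldha rose by 1.15 ± 0.19 from day 0 (adjusted p = 0.0218) and by 1.21 ± 0.19 from day 3 (adjusted p = 0.0197). Hk2 rose by 1.26 ± 0.22 from day 0 (adjusted p = 0.0255), while from day 3 its log2 change of 0.82 ± 0.22 did not pass (adjusted p = 0.08). Pgam1 likewise rose from day 0 (0.90 ± 0.20, adjusted p = 0.0473) and its change from day 3 was 0.68 ± 0.20 (adjusted p = 0.0935). The Hif1a probe set 1448183_a_at rose by 2.91 ± 0.21 from day 0 (adjusted p = 0.00245) and by 2.63 ± 0.21 from day 3 (adjusted p = 0.00352). Aldoa and Slc2a1 had no probe set that passed, the nearest being Aldoa 1439375_x_at from day 0 (0.84 ± 0.19, adjusted p = 0.0539) and Slc2a1 1434773_a_at from day 0 (0.99 ± 0.25, adjusted p = 0.0719).

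The member calls depended on which arrays were in the fit. With any 1 allogeneic array left out, the calls over all tested probe sets fell too, as given below. From day 0, 2 member probe sets passed without day 0 array 1, 1 without day 0 array 2, 6 without day 3 array 1, 7 without day 3 array 2, and 7 with the compared groups alone. From day 3, 3 passed without day 3 array 1, 2 without day 3 array 2, 5 without either day 0 array, and 0 with the compared groups alone.

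**Figure D2:**
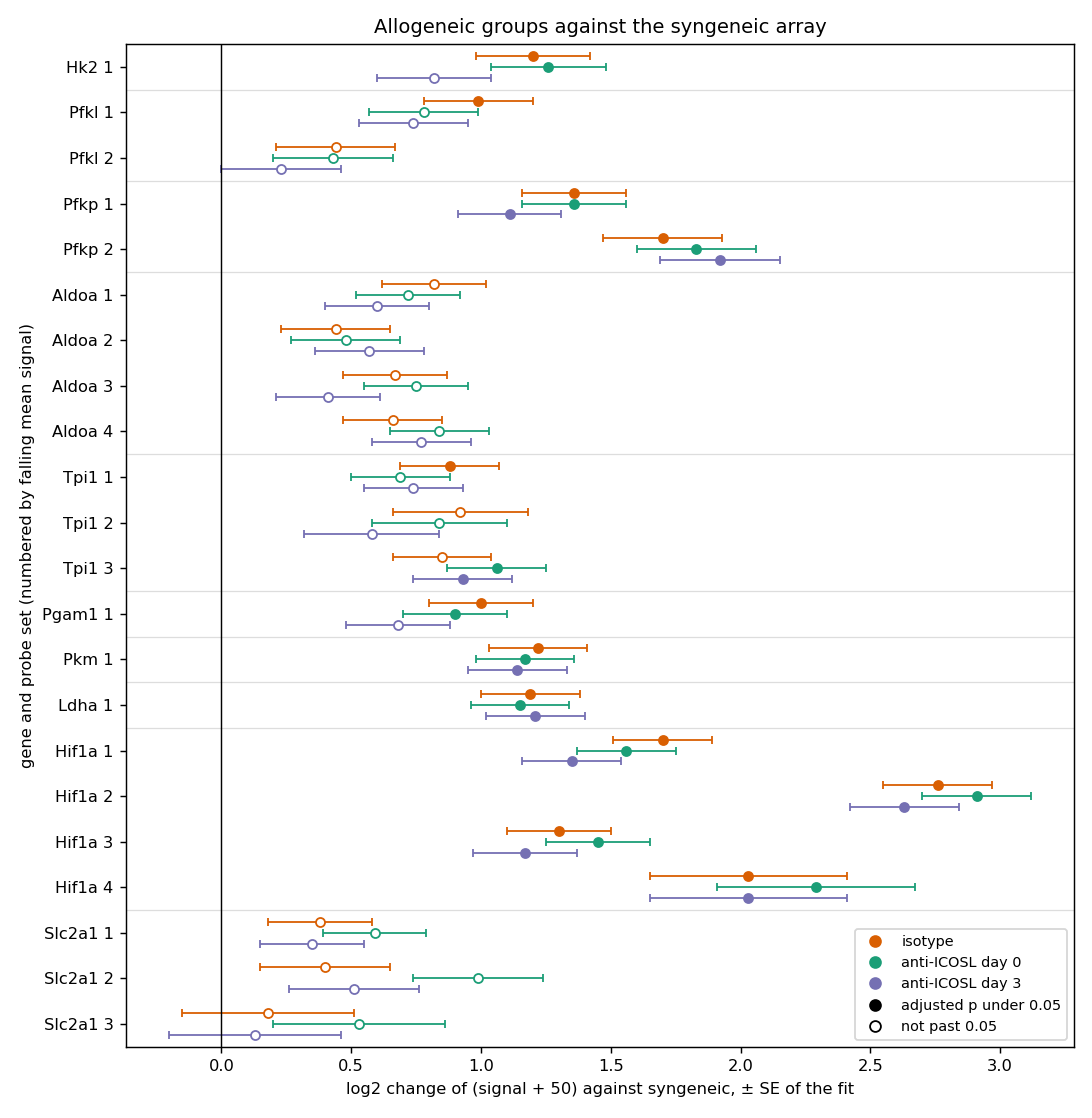
Log2 change of (signal + 50) against the syngeneic array for each member probe set in the 3 allogeneic groups, with the SE of the fit as bars. Probe sets are numbered by falling mean signal within a gene, and filled points have an adjusted p under 0.05. All points lie above 0, those of Hif1a probe set 2 farthest (2.63 to 2.91), and all points of Aldoa and Slc2a1 are open. The points of Hif1a probe set 4 rest on a syngeneic signal of 12.4, under the filter.

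The comparisons of each anti-ICOSL group with isotype ask whether blocking ICOSL moved these genes within the allogeneic response. For these 10 genes no difference passed. From day 0, 0 of the 22 probe sets were called by limma, as were 0% of all tested probe sets (smallest adjusted p = 0.0853), and 1 of the 22 had an unadjusted p under 0.05. From day 3, 0 of 22 and 0% overall were called (smallest adjusted p = 0.0971), with 0 of the 22 under an unadjusted 0.05. Over all tested probe sets, 1103 and 1573 had an unadjusted p under 0.05. Members differed from isotype by -0.22 to 0.58 on the log2 scale from day 0 and by -0.38 to 0.22 from day 3. The 95% intervals of these differences lay within -0.62 to 1.08 and within -0.85 to 0.75. These intervals hold only the spread between arrays of pooled RNA. They leave out the spread between mice, so they do not bound the effect of the antibody and do not show equality.

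From day 0, the largest difference was that of the glucose carrier Slc2a1. Its probe set 1434773_a_at was 0.58 ± 0.21 higher than isotype (95% interval 0.09 to 1.08, adjusted p = 0.67), with the other 2 Slc2a1 probe sets 0.21 and 0.35 higher. The arrays of day 0 lay above both isotype arrays for 5 probe sets of 4 genes, against 19.4% of all tested probe sets, and below them for 3 of 3 genes, against 16.2%. The median of the members was 0.049 and that of all tested probe sets 0.016. Ldha differed by -0.04 (95% interval -0.41 to 0.34) and Pkm by -0.05 (-0.43 to 0.33). Leaving out isotype array 2 turned the 0.35 of Slc2a1 1426599_a_at to -0.05.

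From day 3, more members were lower than isotype. Both day 3 arrays lay below both isotype arrays for 11 probe sets of 7 genes (Hk2, Pfkl, Pfkp, Aldoa, Tpi1, Pgam1 and Hif1a), where 18.8% of all tested probe sets did so, and above them for 2 of 2 genes, where 24.3% did. The members' median was -0.129 and that of all tested probe sets 0.032. With arrays centred on their medians these became -0.23 and -0.069. Hk2 was lowest at -0.38 ± 0.18 (95% interval -0.81 to 0.06, adjusted p = 0.536). Hif1a 1427418_a_at differed by -0.35 ± 0.16 (-0.73 to 0.03, adjusted p = 0.515), and Pgam1 by -0.32 ± 0.16 (-0.71 to 0.06, adjusted p = 0.542). The other 3 Hif1a probe sets differed by -0.13, -0.13 and 0.00. Ldha differed by 0.02 (95% interval -0.36 to 0.40), a difference whose sign turned to -0.08 with median centring.

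**Figure D3:**
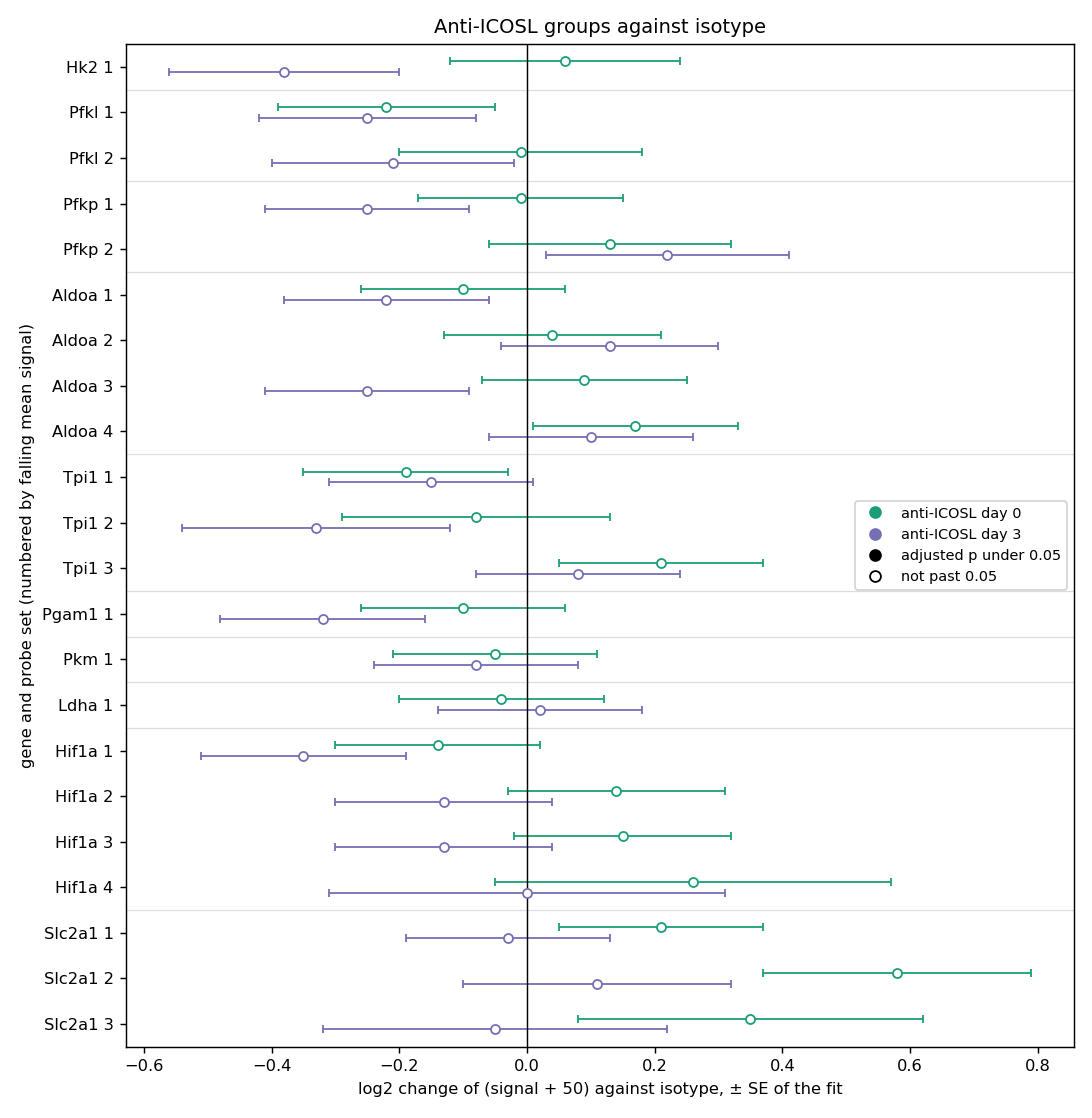
Log2 difference of (signal + 50) from isotype for each member probe set with anti-ICOSL from day 0 and from day 3, with the SE of the fit as bars. All points are open, since none had an adjusted p under 0.05, and they run from -0.38 (Hk2 from day 3) to 0.58 (Slc2a1 probe set 2 from day 0).

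The 2 schedules were also set against each other directly. None of the 22 probe sets was called, as 0% of all tested probe sets were (limma, smallest adjusted p = 0.0914), 0 of the 22 had an unadjusted p under 0.05, and 1043 of all tested probe sets did. Both day 0 arrays lay above both day 3 arrays for 15 member probe sets of 8 genes, all but Pfkl and Ldha, against 18.6% of all tested probe sets, and below them for 0, against 20.4%. The largest differences were those of Slc2a1 1434773_a_at (0.48 ± 0.21, 95% interval -0.02 to 0.97) and Hk2 (0.44 ± 0.18, adjusted p = 0.735). The members' median was 0.214 and that of all tested probe sets -0.014.

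Ordered by group means, the syngeneic group was lowest for all 22 probe sets. Isotype was highest for 9, day 0 for 10 and day 3 for 3. Group orders were not counted over all tested probe sets, and several of the 22 belong to the same gene. The commonest order, syngeneic below day 3 below day 0 below isotype, was seen in 8 probe sets, and no difference between neighbouring allogeneic groups in these orders passed the test. The median absolute log2 difference between the 2 arrays of a group was, over the members, 0.096 for isotype, 0.153 for day 0 and 0.107 for day 3, against 0.242, 0.224 and 0.188 over all tested probe sets. Members and all tested probe sets were not matched for signal level here, so the smaller spread is not shown to be particular to the members. The widest member difference between arrays was 0.79 for isotype, 0.36 for day 0 and 0.66 for day 3. Across the 7 arrays, Pearson's r between the brightest probe sets of 2 members ran from 0.64 to 0.99 over 45 pairs (median 0.94), where all pairs share the 1 syngeneic array that stands apart. Over the 6 allogeneic arrays alone it ran from -0.68 to 0.96 (median 0.39), with 37 of 45 pairs above 0.

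Other lists of glucose metabolism had median log2 changes of -0.43 (gluconeogenesis) to 0.15 in isotype against syngeneic. Of 16 further glycolytic enzymes and isoforms, 8 were tested through 1 probe set each, and 0 rose and 0 fell in isotype against syngeneic, with a median of 0.01. The 8 were Hk1, Pfkm, Aldoc, Pgk1, Bpgm, Eno3, Pklr and Ldhb. Gapdh, Eno1 and Gpi1 were not among them, so the 8 do not stand for the rest of the pathway. Pklr, the pyruvate kinase of liver and red cells, differed by -1.43 (adjusted p = 0.053), and Pgk1, phosphoglycerate kinase, by 0.95 (adjusted p = 0.236) with isotype arrays at 9204 and 16939. Of 10 tested genes of glucose and lactate transport and of the switches around pyruvate, 1 rose and 1 fell (median 0.15). Slc2a3, the high-affinity carrier GLUT3, rose from 1835 to 3863 and 4355 (log2 change 1.14, adjusted p = 0.0263), and Txnip, which holds back glucose uptake, fell from 3072 to 1447 and 1076 (-1.27, adjusted p = 0.0319). In the pentose phosphate pathway 0 of 6 passed (median -0.08, Taldo1 -0.78 and Rpe 0.72). In the TCA cycle 0 of 19 passed (median -0.01, Idh3a 0.67 and Fh1 0.63). In gluconeogenesis 0 of 4 passed (median -0.43, Pck2 -1.54 and G6pc3 -0.93). The median over all tested probe sets was -0.01 and that of the 10 members, each by its brightest probe set, 1.10. Because members and lists were chosen with earlier results of these data known, this contrast is a description and not a test.

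The genes around HIF-1 were mixed. Of 10 tested regulators, 1 was called higher and 0 lower in isotype (median 0.17). This was Epas1, which encodes the related subunit HIF-2 alpha and read 15.4 on the syngeneic array against 218 and 275 with isotype. Its syngeneic signal lay under the filter, so it was tested only through the groups where it is high and no fold is given. Of 13 tested further targets, 2 rose and 1 fell (median -0.10). Ndrg1, a stress-responsive gene, rose from 156 to 488 and 532 (1.44, adjusted p = 0.0116), and Bhlhe40, a transcriptional repressor, rose from 483 to 1753 and 2497 (2.01, adjusted p = 0.0161). Hmox1, the heme-degrading enzyme abundant in red pulp macrophages, fell from 7111 to 621 and 635 (-3.40, adjusted p = 0.00231). Against the syngeneic array, Ndrg1, Bhlhe40, Slc2a3, Hmox1 and Txnip had the listed directions and passed from day 0 and from day 3 as well, with that array shared. Against isotype, 0 genes of these lists passed in either anti-ICOSL group, and Bhlhe40 differed by 0.85 from day 0 (adjusted p = 0.59) and by -0.35 from day 3 (adjusted p = 0.66).

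**Figure D4:**
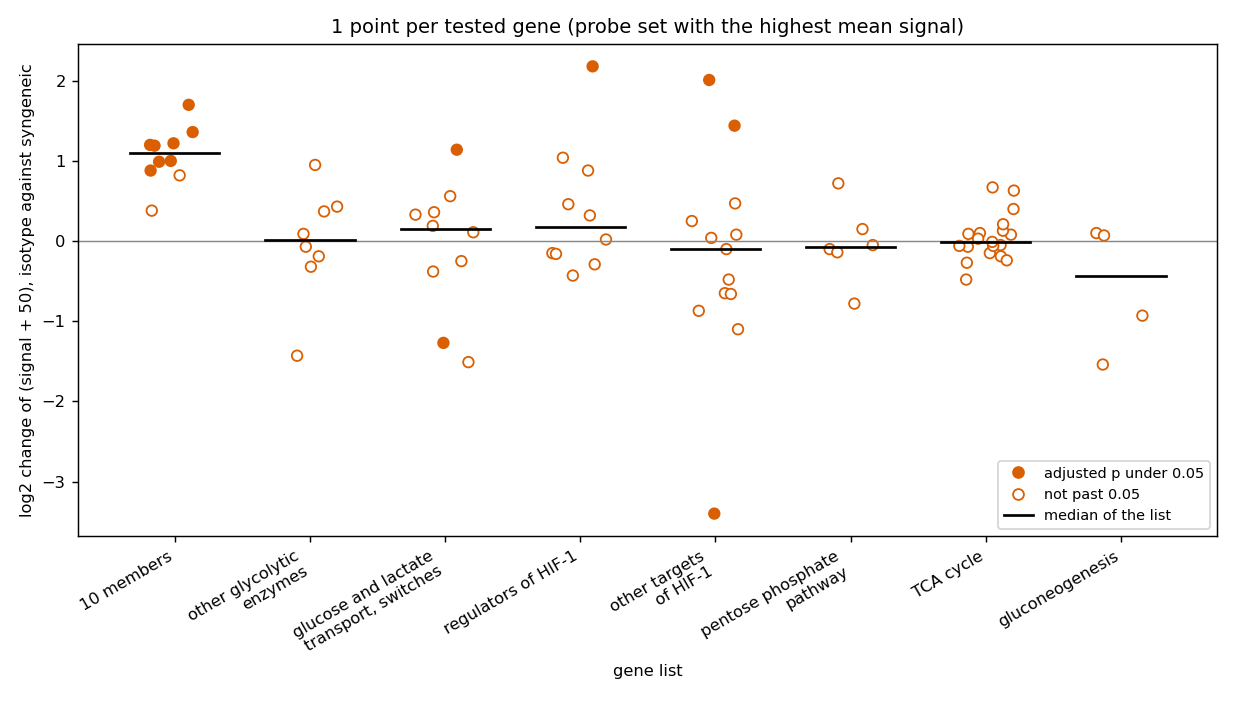
Log2 change of (signal + 50) in isotype against syngeneic for 1 probe set per tested gene, by gene list, with the median of each list as a bar. The 10 members lie between 0.38 and 1.70 around a median of 1.10, and members and lists were chosen with earlier results of these data known. The medians of the other lists run from -0.43 (gluconeogenesis) to 0.17 (regulators of HIF-1), with single genes apart, such as Bhlhe40 at 2.01 and Hmox1 at -3.40. The highest point among regulators of HIF-1 is Epas1, whose syngeneic signal of 15.4 was under the filter.

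Marker signals of several cell types moved with these differences. The summed signal of 6 T cell markers was 17662 on the syngeneic array, 26208 to 28509 with isotype, 23918 to 24842 from day 0 and 23622 to 24062 from day 3. In isotype 6 of 6 had a log2 change of 0.00 or more and 1, Cd28, rose (1.75). The 11 proliferation markers summed to 34380 on the syngeneic array and to 57484 to 62027 on the allogeneic arrays, with 4 that rose in isotype (Rrm2, Plk1, Aurkb and Cdk1, by 1.00 to 1.26). All 10 macrophage markers fell in isotype, led by Slc40a1 (-3.65), Vcam1 (-3.52), Spic (-3.39) and Marco (-2.50), with sums of 51557 on the syngeneic array, 6762 to 7237 with isotype, 11766 to 11784 from day 0 and 9476 to 10337 from day 3. The 7 neutrophil markers, all of which fell in isotype, led by Camp (-2.51), S100a9 (-2.18), Ltf (-1.99) and Ngp (-1.86), summed to 37153 against 9645 to 13645. Sums of 7 erythroid markers were 21199 against 5613 to 8906, and Klf1 (-2.02) and Car2 (-1.93) fell in isotype. The 6 B cell markers summed to 23595 on the syngeneic array, 15185 to 17076 with isotype, 10352 to 12631 from day 0 and 11191 to 11380 from day 3, and 0 of the 5 tested passed in isotype (Ms4a1 -0.94 and Cd79b -0.86). Sums of 3 natural killer markers were 6992 on the syngeneic array and 8881 to 10443 on the allogeneic arrays, those of 5 platelet markers 878 and 769 to 1204, and those of 6 exocrine pancreas markers 4532 and 770 to 2234. In isotype the pancreas gene Cela1 fell (-1.64), and 0 natural killer markers (Klrd1 at 1395 against 569 and 795, and Nkg7 at 5133 against 9262 and 8647) and 0 platelet markers passed (Gp9 at 20.9 against 195 and 159, and Pf4 -0.67). No marker of these lists was listed at 0. The signal of the 3′ Gapdh control divided by that of the 5′ control, which reflects how intact the RNA was, stood at 0.957 for syngeneic and at 0.767 to 0.865 for allogeneic arrays. The part of cell makeup or of RNA quality in the members' changes was not tested.

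Among 8952 other genes, those whose pattern over the 7 arrays was most like that of Hif1a 1427418_a_at were Serpinb9 (Pearson's r of 0.996), Asf1b (0.994), Nans (0.991), Ifi202b (0.990) and Thy1 (0.990). For the mean of the 10 members they were Thy1 (0.998), Psmb9 (0.997), Asf1b (0.997), Serpinb9 (0.995) and Ifng (0.995). Serpinb9 encodes an inhibitor of granzyme B, Asf1b a histone chaperone, Thy1 a surface protein of mouse T cells, Psmb9 an immunoproteasome subunit and Ifng interferon gamma. Each has a low syngeneic array and a narrow allogeneic range, such as Thy1 at 5088 against 9297 to 11356 and Ifng at 132 against 1665 to 2607. Ifi202b read 44.4 on the syngeneic array, under the filter, and 1007 to 1526 on the allogeneic arrays. It was thus tested only through the groups where it is high, and its r is no support for a shared pattern. With 1 syngeneic array apart from 6 others, these values of r rest largely on that array.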

How the data were processed

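The authors deposited linear signal intensities made with MAS5, per the submitters' processing notes, where no version is named. RNA (10 µg per array) was biotin-labelled, per the labels. Of 22690 probe sets, 64 manufacturer controls were left out. Exactly 1 gene symbol was assigned to 20380 of the other 22626, several to 691 and none to 1555. A probe set was tested if any group averaged at least 99.7, the 40th percentile over all arrays, as 15372 did. Log2(signal + 50) was fitted with limma (version 3.58.1, R 4.3.3), with 4 groups, 6 comparisons, 3 residual and 3.36 prior degrees of freedom, two-sided p-values and Benjamini-Hochberg adjustment. The number of arrays limits the precision. The procedure was tested on simulated data.

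All member probe sets were named. Of each other list, represented by its genes' brightest probe sets, up to 4 genes past the threshold or else up to 2 with the largest change in isotype against syngeneic were named, together with the 5 nearest patterns. Bhlhe40 against isotype was chosen after its values were seen. Members and lists were chosen with earlier results of these data known. Sequences come from RefSeq promoters, and all 10 members matched by symbol. Alternatives changed the pseudocount (16 or 100), the filter (60th percentile or no filter), the scaling (quantiles or centring on medians), the arrays in the fit (those of the compared groups, or all but 1 allogeneic array), the variance model (trend and robust) and the design (replicate numbers as a block).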

Additional observations from a re-analysis of the deposited data

How the results depend on the processing

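Against the syngeneic array, all member changes stayed above 0 in every alternative run for the day 0 group and the day 3 group (log2 0.26 to 3.07 and 0.10 to 2.79 for the 21 probe sets with a syngeneic signal above the filter). In isotype they did so but for Slc2a1 1426599_a_at, at -0.21 to 0.57 with 1 allogeneic array left out. Counts of calls depended on the setting. In isotype, the 12 member calls became 7 with no filter, 1 with the compared groups alone, 6 with the replicate block, and 3 to 8 with 1 array left out. From day 0, the 11 became 7, 7, 6 and 1 to 10, and 18 with trend and robust options. From day 3, the 9 became 4, 0, 4 and 2 to 8, and 16 with trend and robust options. Over all probe sets, the 1017 calls in isotype became 1616 with the filter at the 60th percentile, 542 with no filter, 311 with the compared groups alone, 640 with the replicate block, 1786 with trend and robust options, and 410 to 692 with 1 array left out. The 1081 from day 0 became 1783, 552, 641 with the replicate block, 1945, and 246 to 931. The 1108 from day 3 became 1794, 526, 0 with the compared groups alone, 615 with the replicate block, 1898, and 276 to 912. The 0 calls of day 0 against isotype became 13 with the filter at the 60th percentile, 3 with a pseudocount of 100 and 21 with trend and robust options. For day 3 against isotype they became 8, 2 and 5, and for day 0 against day 3, 7, 6 and 12. Counting only probe sets with a syngeneic signal above the filter, chosen after seeing the data, left 11, 10 and 8 member calls against the syngeneic array. In the 3 comparisons between allogeneic groups, the members had 0 calls under every alternative. Deviations of arrays with the same replicate number correlated by -0.012 to 0.075, so no pairing by number was seen. A call lost under the block need not mean a weaker effect. The causes of these changes were not tested.

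Differences between allogeneic groups near 0 changed sign. With median centring, day 0 against day 3 became 0.01 for Tpi1 1452927_x_at, day 0 against isotype -0.01 for Aldoa 1434799_x_at, and day 3 against isotype -0.10 for Hif1a 1431981_at, -0.08 for Ldha and -0.02 for Tpi1 1435659_a_at. With quantile normalization, day 0 against isotype became 0.09 for Ldha and 0.02 for Pfkp 1416069_at, and day 3 against isotype -0.08 for Hif1a 1431981_at. With 1 array left out, day 0 against day 3 ran from -0.22 to 0.02 for Aldoa 1434799_x_at, -0.08 to 0.58 for Hif1a 1431981_at, -0.13 to 0.01 for Ldha, -0.06 to 0.13 for Pfkl 1439148_a_at and -0.19 to 0.01 for Pfkp 1430634_a_at. Day 0 against isotype ran from -0.02 to 0.09 for Aldoa 1434799_x_at, -0.05 to 0.56 for Hif1a 1431981_at, -0.07 to 0.19 for Hk2, -0.10 to 0.03 for Ldha, -0.18 to 0.15 for Pfkl 1450269_a_at, -0.04 to 0.03 for Pfkp 1416069_at, -0.04 to 0.30 for Pfkp 1430634_a_at, -0.12 to 0.02 for Pkm, -0.05 to 0.74 for Slc2a1 1426599_a_at and -0.34 to 0.18 for Tpi1 1415918_a_at. Day 3 against isotype ran from -0.33 to 0.33 for Hif1a 1431981_at, -0.01 to 0.06 for Ldha, -0.44 to 0.35 for Slc2a1 1426599_a_at, -0.11 to 0.06 for Slc2a1 1426600_at, -0.05 to 0.27 for Slc2a1 1434773_a_at and 0.00 to 0.16 for Tpi1 1435659_a_at. The syngeneic array could not be left out of its own comparisons, and 1 Hif1a probe set, 1431981_at, was not tested with the filter at the 60th percentile.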
